A study of Mus musculus with 18 samples.

Results

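MHC class I molecules and the machinery that supplies them with peptides were followed through 10 genes in mouse hearts: the heavy chain genes H2-D1 and H2-K1, the light chain gene B2m, the peptide transporter genes Tap1 and Tap2, the transporter's partner Tapbp (tapasin), the inducible proteasome subunits Psmb8, Psmb9 and Psmb10, and the class I transactivator Nlrc5. The members are all probe sets whose only gene symbol in the platform annotation is one of these 10. There are 27 of them, among 45137 probe sets other than controls on the pair of chips that each heart was hybridised to, 25 on chip 430A and 2 on chip 430B. The 10 genes were chosen from measured values of these same hearts, in which probe sets of H2-D1 stood high 4 weeks after AAC relative to hearts before AAC. H2-D1 and its close relative H2-K1 are therefore described with no test in both comparisons that involve the hearts before AAC.

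Class I heavy chains pair with beta-2 microglobulin and carry a short peptide to the cell surface, where cytotoxic T cells inspect it. The peptides are cut by proteasomes, whose inducible catalytic subunits replace the constitutive ones under interferon gamma, pass through the TAP transporter into the endoplasmic reticulum and are loaded with the help of tapasin. In the heart, class I is found mainly on endothelial and immune cells and is low on resting heart muscle cells. Heavy chain genes differ strongly in sequence between mouse strains, so that a probe set made from the sequence of a particular strain can read another strain's transcript poorly.

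All 9 hearts came from male mice that carried Tet-myrAkt1, a Tet-regulated transgene for constitutively active Akt1, and αMHC-tTA, whose promoter limits its expression to heart muscle cells. The 3 groups of 3 hearts were taken 6 weeks after AAC with Akt switched on, 4 weeks after AAC, and before AAC, AAC being the operation that loads the heart with pressure. The age label is 12 weeks for both groups after AAC and 8 weeks for the group before it, the titles give 3 weeks of Akt and the descriptions 2, and the description of replicate 3 of the 4-week group carries the number 1. No unoperated group of the later age and no group without the transgenes was used here, so AAC, time, age and any genetic difference between the groups cannot be told apart in the comparisons with the hearts before AAC. No group 6 weeks after AAC without Akt was used either. With Akt on against 4 weeks, Akt and the longer time after AAC therefore cannot be told apart. The labels name no strain other than the transgenes and do not say whether a sample is 1 animal or a pool, so the p-values below measure only the spread between these samples, which may be technical.

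Pearson's r between replicate arrays was at least 0.963 (chip 430A) and at least 0.913 (chip 430B). Markers of heart muscle were high in every heart, with no probe set of the list below a signal of 257.3. Transcripts typical of the atria varied many-fold within each group, with summed signals from 6755 to 73098 with Akt on, from 5933 to 71701 at 4 weeks and from 5226 to 95205 before AAC. The 3'/5' signal ratio of the β-actin control probe sets, which is high where RNA is degraded, was 1.22, 1.09 and 1.04 with Akt on, 1.21, 1.14 and 1.21 at 4 weeks, and 1.49, 1.95 and 2.04 before AAC. It was thus higher in all hearts before AAC than in any later heart (exact two-sided permutation p = 0.1 for each later group, the smallest that 3 against 3 can give), while the groups after AAC overlapped (exact permutation p = 0.4). This ratio moves with every difference from the hearts before AAC given below, and its part in them was not tested.

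The promoters of these genes are shown first because class I promoters share a known module that interferon, NF-κB and the Nlrc5 complex use. Promoters of 8 of the 10 members were found in the RefSeq table for GRCm38.p6, and Tap2 and Nlrc5 were not. The 250 bases before each start site were searched on both strands for an IRF core (AANNGAAA), a kappa-B core (GGGATTCC), a CRE-like core (TGACG) and a CCAAT box (CCAAT), which 21.3%, 0.9%, 17.8% and 33.8% of 32851 promoters of the same length hold. Capitals mark the matches, which do not overlap each other in the sequences shown. The first pair are the heavy chain genes, H2-D1 at chr17:35262844-35263093 on the plus strand and H2-K1 at chr17:34000348-34000597 on the minus strand, for which the more upstream of 2 listed starts was used. B2m lies at chr2:122147437-122147686 on the plus strand. Psmb9, at chr17:34187331-34187580 on the minus strand, is shown for the stretch it shares with Tap1 on the other strand, their start sites being 226 bases apart. Psmb10, at chr8:105938393-105938642 on the minus strand, is shown because it had the clearest change with Akt on.
H2-D1: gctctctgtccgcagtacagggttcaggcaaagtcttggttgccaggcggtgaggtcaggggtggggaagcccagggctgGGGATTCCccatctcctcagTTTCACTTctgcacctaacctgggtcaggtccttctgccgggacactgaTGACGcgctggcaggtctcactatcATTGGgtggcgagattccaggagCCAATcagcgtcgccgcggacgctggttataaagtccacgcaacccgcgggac
H2-K1: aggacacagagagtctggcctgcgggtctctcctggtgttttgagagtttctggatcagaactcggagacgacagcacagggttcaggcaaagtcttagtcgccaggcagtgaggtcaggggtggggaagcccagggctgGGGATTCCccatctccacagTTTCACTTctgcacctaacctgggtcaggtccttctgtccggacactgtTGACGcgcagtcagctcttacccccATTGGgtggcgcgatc
B2m: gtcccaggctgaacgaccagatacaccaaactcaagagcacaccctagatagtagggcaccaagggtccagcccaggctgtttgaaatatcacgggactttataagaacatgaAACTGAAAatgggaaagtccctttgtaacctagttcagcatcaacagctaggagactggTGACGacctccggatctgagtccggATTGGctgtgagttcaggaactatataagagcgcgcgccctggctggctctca
Psmb9: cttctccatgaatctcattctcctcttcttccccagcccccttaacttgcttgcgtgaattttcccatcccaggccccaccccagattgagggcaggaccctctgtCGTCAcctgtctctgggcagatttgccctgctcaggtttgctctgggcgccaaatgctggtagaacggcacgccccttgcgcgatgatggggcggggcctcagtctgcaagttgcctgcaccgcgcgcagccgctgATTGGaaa
Psmb10: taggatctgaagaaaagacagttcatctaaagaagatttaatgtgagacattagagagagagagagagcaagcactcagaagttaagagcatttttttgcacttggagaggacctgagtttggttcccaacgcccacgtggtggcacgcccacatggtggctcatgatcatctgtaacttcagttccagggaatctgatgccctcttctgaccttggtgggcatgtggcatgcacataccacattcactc

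The heavy chain promoters held all 4 motifs in the same order and at the same distances: 20 bases from the start of the kappa-B match to that of the IRF match, 49 from there to the CRE-like match and 25 from there to a CCAAT box. Over the part that aligned, the H2-D1 and H2-K1 promoters had 161 identical bases, 16 mismatches and 0 gaps, an identity of 91.0%. The B2m promoter held the IRF, CRE-like and CCAAT matches, with the same 25 bases between the last pair and 59 between the first pair. It held no match to GGGATTCC, the only kappa-B letters searched. Other forms of a kappa-B site were not searched for, so their absence from B2m or any other member is not shown. Tap1 and Psmb9 each held a CRE-like match and a CCAAT box, both within their shared stretch, Tapbp held 2 CCAAT boxes, and neither Psmb8 nor Psmb10 held any of the 4. These matches describe the letters of the reference genome and not binding in these hearts.

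**Figure D1:**
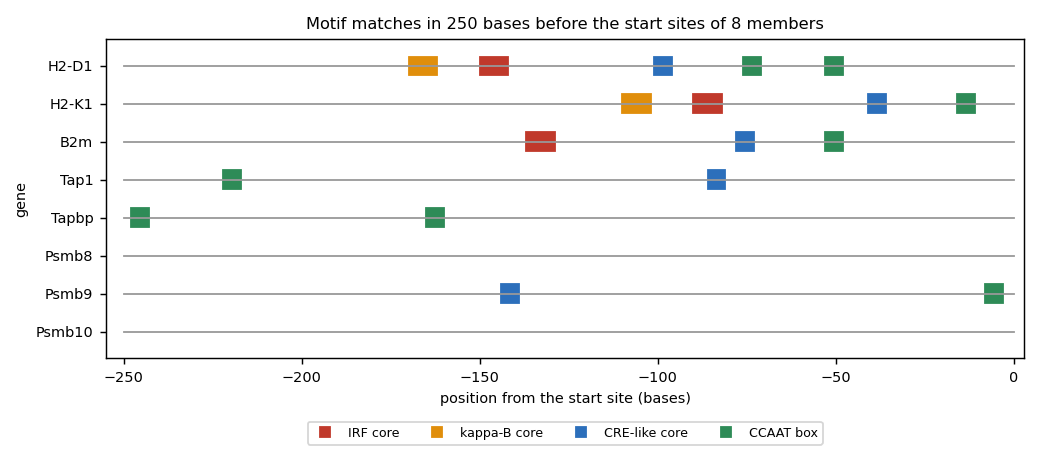
Positions of the 4 motifs in the 250 bases before the start sites of the 8 members with a listed promoter (x axis, bases from the start site; 1 line per gene, coloured boxes as in the legend). The heavy chain genes show the same 4 boxes at the same spacing, B2m shows 3 kinds of them, and Psmb8 and Psmb10 show none.

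Among the 13 heavy chain probe sets, 5 lay above all hearts before AAC in both groups after AAC (4 of H2-D1 and 1 of H2-K1), and 1, of H2-D1, lay below them in both. A further 3 lay below the hearts before AAC only at 4 weeks, 1 only with Akt on, and 3 overlapped with them in both groups. The groups thus did not overlap in 9 of the 13 at 4 weeks and in 7 with Akt on, against 25.1% of all probe sets in each comparison. These counts are no test, since the genes were chosen from values of these same hearts. The 9 probe sets of H2-D1 were made from 9 different source sequences and the 4 of H2-K1 from 4, per the platform annotation. They can therefore read different alleles or related class I transcripts of the same heart, and those whose names end in x_at hold probes that may also match other transcripts. A change in the amount of transcript and a difference in allele between the groups cannot be told apart by these probe sets. Values below are signals on a linear scale, and differences are on the scale of log2(signal + 32), which understates the change of low signals.

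H2-D1 1425545_x_at had signals of 4595.0, 3751.0 and 3681.3 with Akt on and of 4374.7, 5154.3 and 5389.1 at 4 weeks, against 803.4, 702.7 and 687.8 before AAC. All 6 hearts after AAC lay above all 3 before it, and the groups after AAC overlapped. The log2 difference was 2.71 (SE 0.13) at 4 weeks and 2.40 (SE 0.13) with Akt on, both against before AAC. H2-D1 1451784_x_at followed it, with 3653.1, 2986.0 and 3567.5 with Akt on and 3303.2, 4280.6 and 5222.2 at 4 weeks, against 616.6, 603.8 and 542.3 before AAC. Its log2 differences were 2.77 (SE 0.16) at 4 weeks and 2.47 (SE 0.16) with Akt on.

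H2-K1 1451931_x_at, a probe set of the other heavy chain gene, was likewise high after AAC. Its signals were 1238.8, 1555.1 and 1510.2 with Akt on and 2117.6, 2219.2 and 2445.3 at 4 weeks, against 226.3, 213.7 and 141.4 before AAC. The 4-week hearts were the highest, those with Akt on lay between, and no groups overlapped. The mean on the log2 scale was 10.3-fold higher at 4 weeks than before AAC (log2 3.36, SE 0.16) and 6.56-fold higher with Akt on than before AAC (log2 2.71, SE 0.16).

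H2-D1 1451683_x_at started near the floor of the scale. It had 241.4, 440.5 and 458.1 with Akt on and 639.8, 647.2 and 671.4 at 4 weeks, against 52.3, 45.9 and 23 before AAC, again in the order 4 weeks, Akt on, before AAC with no overlap. Its log2 differences from before AAC were 3.27 (SE 0.25) at 4 weeks and 2.48 (SE 0.25) with Akt on. They depend on the pseudocount: with 8 in place of 32 they were 3.83 and 3.01, above the 3.52 and 2.86 of H2-K1 1451931_x_at, and with 100 they were 2.43 and 1.75, below its 3.02 and 2.39. H2-D1 1426324_at repeated this order at a smaller size, with 280.3, 307.5 and 237.7 with Akt on and 405.3, 405.1 and 426.8 at 4 weeks, against 160.5, 143.8 and 147.0 before AAC. Its log2 differences were 1.29 (SE 0.16) and 0.75 (SE 0.16).

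The opposite direction was seen in H2-D1 1450170_x_at, the only probe set of the 9 whose source is a transcript that RefSeq lists for H2-D1 in the reference assembly. It had 429.6, 504.5 and 480.4 with Akt on and 635.4, 518.0 and 704.3 at 4 weeks, against 1038.3, 1022.5 and 953.8 before AAC. All 6 hearts after AAC lay below all 3 before it, by a log2 difference of −0.68 (SE 0.13) at 4 weeks and −1.04 (SE 0.13) with Akt on. H2-K1 1425336_x_at had 2561.6, 2498.1 and 1906.1 with Akt on and 2639.8, 3350.4 and 3880.3 at 4 weeks, against 3744.8, 4795.9 and 4457.8 before AAC. Its hearts with Akt on lay below all others, and the 4-week and earlier hearts overlapped. The log2 difference from before AAC was −0.40 (SE 0.17) at 4 weeks and −0.90 (SE 0.17) with Akt on. Probe sets of the same heavy chain gene thus differed in opposite directions within the same hearts.

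In the other 6 heavy chain probe sets the hearts with Akt on overlapped with those before AAC. H2-K1 1427746_x_at had 610.9, 669.2 and 554.7 with Akt on, 555.0, 578.2 and 748.9 at 4 weeks, and 642.0, 705.0 and 740.3 before AAC, with all groups overlapping. H2-K1 1450534_x_at had 502.3, 333.8 and 298.2 with Akt on, 339.8, 299.5 and 338.5 at 4 weeks, and 480.6, 550.6 and 454.1 before AAC, its 4-week hearts below all hearts before AAC (log2 −0.56, SE 0.19). H2-D1 1425614_x_at, 1427651_x_at, 1451934_at and 1452544_x_at had low signals, between 9.0 and 202.3 in any heart, and log2 differences from before AAC between −0.61 and 0.33. All 4-week hearts lay below those before AAC in 1425614_x_at (log2 −0.61) and 1451934_at (log2 −0.57).

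**Figure D2:**
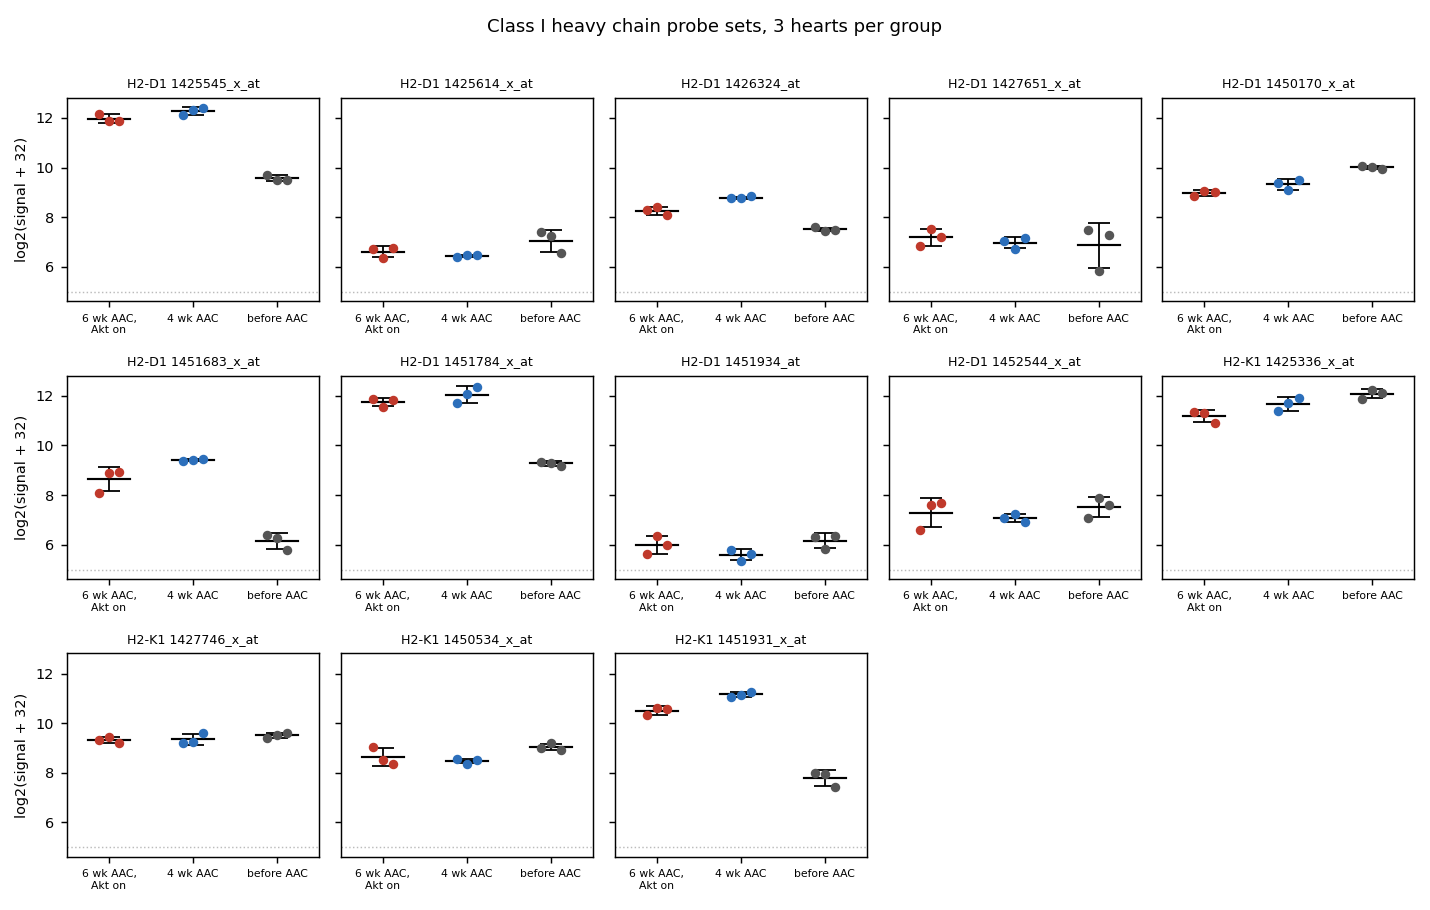
Level of each of the 13 heavy chain probe sets in each heart (y axis, log2(signal + 32); dots are hearts, the bar and whiskers the mean and SD of 3; the dotted line is the value of a signal of 0). H2-D1 1425545_x_at, 1426324_at, 1451683_x_at and 1451784_x_at and H2-K1 1451931_x_at are high in both groups after AAC, while H2-D1 1450170_x_at and H2-K1 1425336_x_at have their highest mean before AAC.

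Hearts 6 weeks after AAC with Akt on were compared with hearts 4 weeks after AAC, so that Akt and the longer time are confounded. This comparison shares the 4-week hearts with the one in which H2-D1 was noticed. Selection for high 4-week values favours a lower value in any other group. The heavy chain differences in this comparison are therefore descriptive only. None of the 13 heavy chain probe sets passed the test (limma, Benjamini-Hochberg over all probe sets, smallest adjusted p = 0.1), while 6 had an unadjusted p under 0.05. The smallest adjusted p was that of H2-K1 1451931_x_at (log2 −0.65, SE 0.16, 95% interval −1.01 to −0.29). The 5 probe sets that were high after AAC all had a lower mean with Akt on than at 4 weeks, with log2 differences from −0.78 to −0.31, and in 3 of these 5 the groups did not overlap.

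B2m, the light chain that every class I heavy chain needs, had bright signals in all hearts and no change that passed the test. B2m 1449289_a_at had 2069.2, 3073.5 and 3089.3 with Akt on and 3224.3, 3595.5 and 3479.7 at 4 weeks, against 2752.1, 2920.5 and 2829.3 before AAC. The 4-week hearts lay above all others, by a log2 difference of 0.27 from before AAC (95% interval −0.05 to 0.60, limma adjusted p = 0.38). B2m 1452428_a_at had 4881.2, 6761.5 and 7333.0 with Akt on, 5806.1, 7727.0 and 7900.4 at 4 weeks, and 6469.3, 8046.9 and 6543.5 before AAC, all overlapping. Its log2 difference at 4 weeks from before AAC was 0.02 (95% interval −0.37 to 0.41).

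All 5 probe sets of the transporter genes had a lower mean after AAC than before it, with log2 differences of −1.23 to −0.12 for the 4-week hearts and of −0.61 to −0.01 for those with Akt on, and 1 of these differences passed the test. Between Akt on and 4 weeks they ran from −0.20 to 0.62 and none passed. Tap1 1416016_at had 211.9, 206.5 and 187.3 with Akt on and 219.1, 265.3 and 219.5 at 4 weeks, against 310.5, 310.9 and 271.6 before AAC. The groups did not overlap in any comparison, and none of the differences passed (log2 −0.49, SE 0.16, limma adjusted p = 0.1 with Akt on against before AAC). Tap1 1420274_at fell at 4 weeks against before AAC (log2 −1.23, SE 0.19, limma adjusted p = 0.0217), with 46.6, 36.6 and 30.4 with Akt on and 6.5, 20.0 and 14.5 at 4 weeks, against 84.9, 67.2 and 70.7 before AAC. These signals lie near the floor of the scale, and the call was lost in 7 of the 18 alternatives that could be computed, among them leaving out replicate 1 or 2 of the 4-week hearts or any of the hearts before AAC (adjusted p up to 0.0796). Tap1 1448177_at and 1449803_x_at stayed between 4.0 and 81.7 in every heart, and neither passed the test in any comparison.

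Tap2, the partner chain of Tap1 in the transporter, had 464.4, 312.7 and 400.6 with Akt on, 421.3, 427.1 and 504.7 at 4 weeks, and 569.6, 524.0 and 435.3 before AAC, with groups that overlapped. Tapbp, which holds the heavy chain at the transporter, had 2 probe sets with log2 differences between −0.12 and 0.19 in the 3 comparisons. Tapbp 1421812_at had 1519.2, 1011.9 and 1171.7 with Akt on, 908.0, 1432.7 and 1142.5 at 4 weeks, and 1192.0, 1015.7 and 997.7 before AAC. No difference of Tap2 or Tapbp passed the test.

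Psmb10, the inducible proteasome subunit that replaces Psmb7, was the only member that passed the test between Akt on and 4 weeks of AAC. Its signals were 573.8, 508.9 and 475.1 with Akt on, against 1366.9, 1348.3 and 1328.2 at 4 weeks and 1442.1, 1238.9 and 1312.1 before AAC. All hearts with Akt on lay far below all others, and the 4-week hearts lay within the range of those before AAC. Psmb10 fell 2.51-fold with Akt on against 4 weeks (log2 −1.33, SE 0.11, limma adjusted p = 8.28e-04, lower in 3 of 3 hearts), the 8th smallest p of 45137 probe sets. Against before AAC it fell 2.47-fold (log2 −1.31, SE 0.11, adjusted p = 5.4e-04), and between 4 weeks and before AAC the log2 difference was 0.02 (95% interval −0.23 to 0.27). Psmb10 kept its call in both comparisons under all 19 alternatives, with adjusted p of at most 0.0151 against 4 weeks and 0.00768 against before AAC. The RNA ratios of the Akt and 4-week hearts overlapped.

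Psmb8 and Psmb9, the other inducible subunits, were lowest with Akt on but at a smaller size. Psmb8 1422962_a_at had 369.1, 447.5 and 296.4 with Akt on and 413.8, 441.8 and 577.8 at 4 weeks, against 642.9, 601.4 and 613.4 before AAC. It fell with Akt on against before AAC (log2 −0.71, SE 0.17, limma adjusted p = 0.0349) and did not pass at 4 weeks against before AAC (log2 −0.37, adjusted p = 0.307) or with Akt on against 4 weeks (log2 −0.34, adjusted p = 0.416). Psmb9 had 213.8, 268.2 and 268.1 with Akt on and 313.3, 344.3 and 457.1 at 4 weeks, against 473.9, 478.3 and 372.7 before AAC.

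Psmb9 also fell with Akt on against before AAC (log2 −0.75, SE 0.18, limma adjusted p = 0.0348), and its hearts with Akt on lay below all 4-week hearts without passing the test (log2 −0.51, adjusted p = 0.244). Each of these falls held under 11 of the 19 alternatives, with adjusted p of up to 0.108 for Psmb8 and 0.118 for Psmb9. Both were lost without any of the hearts before AAC, without 4-week replicate 2 and without replicate 1 or 3 of the hearts with Akt on, and Psmb9 also without replicate 2 of these. The second Psmb8 probe set, 1444619_x_at on chip 430B, stayed at or below a signal of 23.3 in every heart and is not informative.

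Nlrc5, which is induced by interferon gamma and binds class I promoters through the module shown above, was read by a single probe set on chip 430B. It had 97.9, 100.4 and 58.0 with Akt on, 52.3, 80.3 and 118.8 at 4 weeks, and 111.4, 100.3 and 79.8 before AAC. All groups overlapped, and its log2 difference at 4 weeks was −0.19 (95% interval −0.76 to 0.38, limma adjusted p = 0.774).

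**Figure D3:**
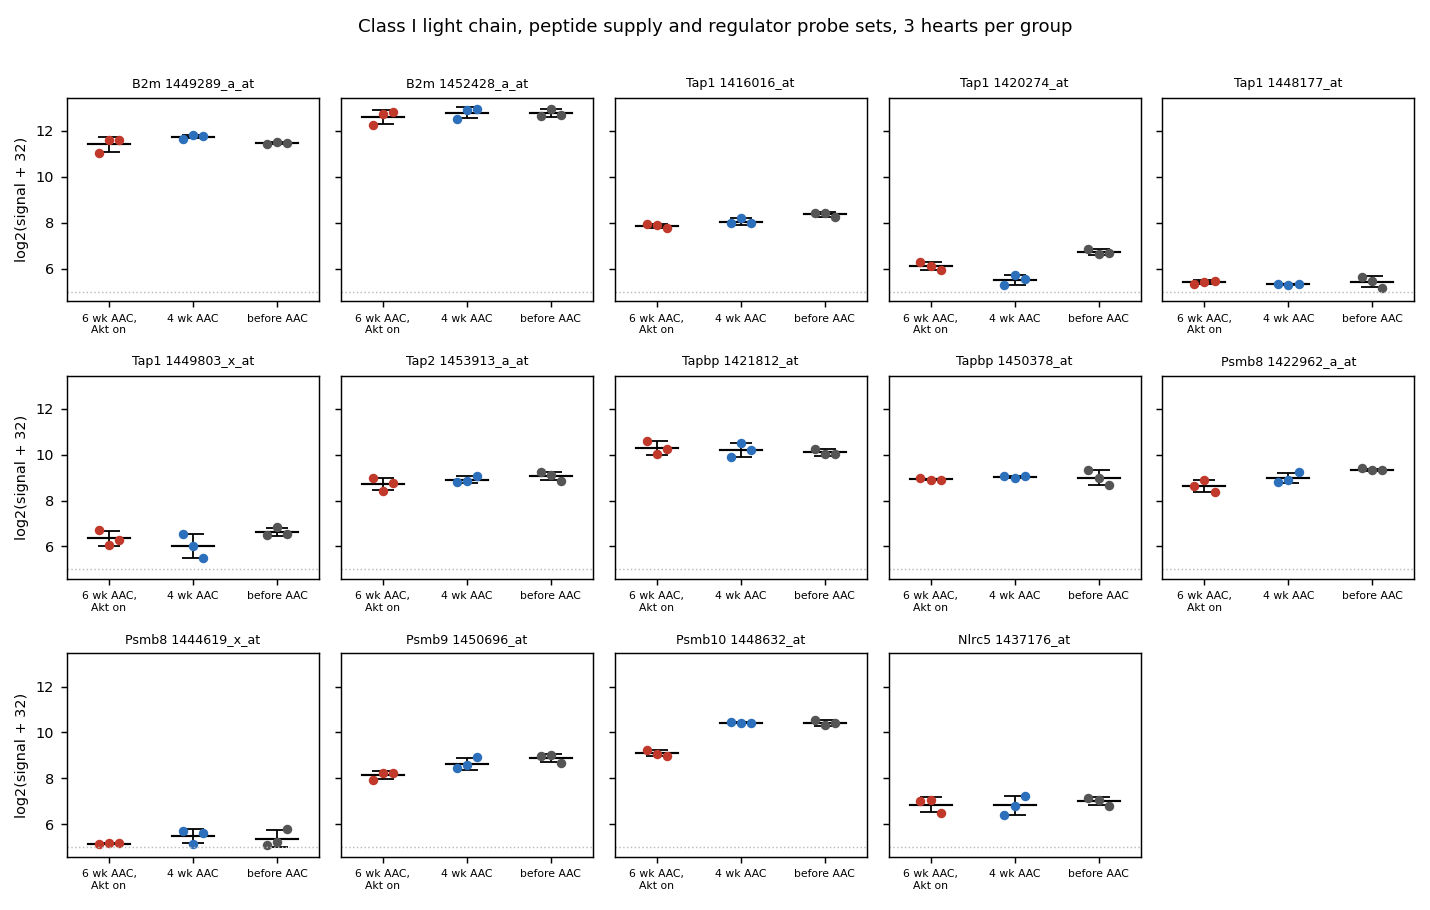
Level of each of the other 14 probe sets, of B2m, Tap1, Tap2, Tapbp, Psmb8, Psmb9, Psmb10 and Nlrc5, in each heart (y axis, log2(signal + 32); dots are hearts, the bar and whiskers the mean and SD of 3; the dotted line is the value of a signal of 0). Psmb10 is low in the 3 hearts with Akt on and alike in the other 6; B2m and Tapbp overlap between most groups.

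The 14 probe sets of the members other than the heavy chains were counted against all probe sets. At 4 weeks against before AAC, none of the 14 were called higher and 1, of Tap1, lower (limma, 2 with an unadjusted p under 0.05), where 0.864% of all probe sets were called higher and 0.492% lower. The groups did not overlap in 4 of the 14, against 25.1% of all. With Akt on against before AAC, none were called higher and 3, of Psmb8, Psmb9 and Psmb10, lower (5 with an unadjusted p under 0.05), where 3.37% of all were called higher and 3.05% lower, and the groups did not overlap in 5 of the 14, against 25.1% of all.

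With Akt on against 4 weeks, where the heavy chains were tested too, none of the 27 were called higher and 1, Psmb10, lower, where 0.43% of all were called higher and 0.556% lower. The groups did not overlap in 12 of the 27, 5 of them heavy chain, against 18.5% of all, and 10 had an unadjusted p under 0.05. The heavy chain part of these counts is favoured by the choice of H2-D1 for its high 4-week values. The median log2 difference of the 14 was −0.14 at 4 weeks against before AAC (all probe sets −0.05), −0.18 with Akt on against 4 weeks (all 0.05) and −0.24 with Akt on against before AAC (all 0.00). The comparisons share hearts, and probe sets of a gene share a target, so these counts are not independent.

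**Figure D4:**
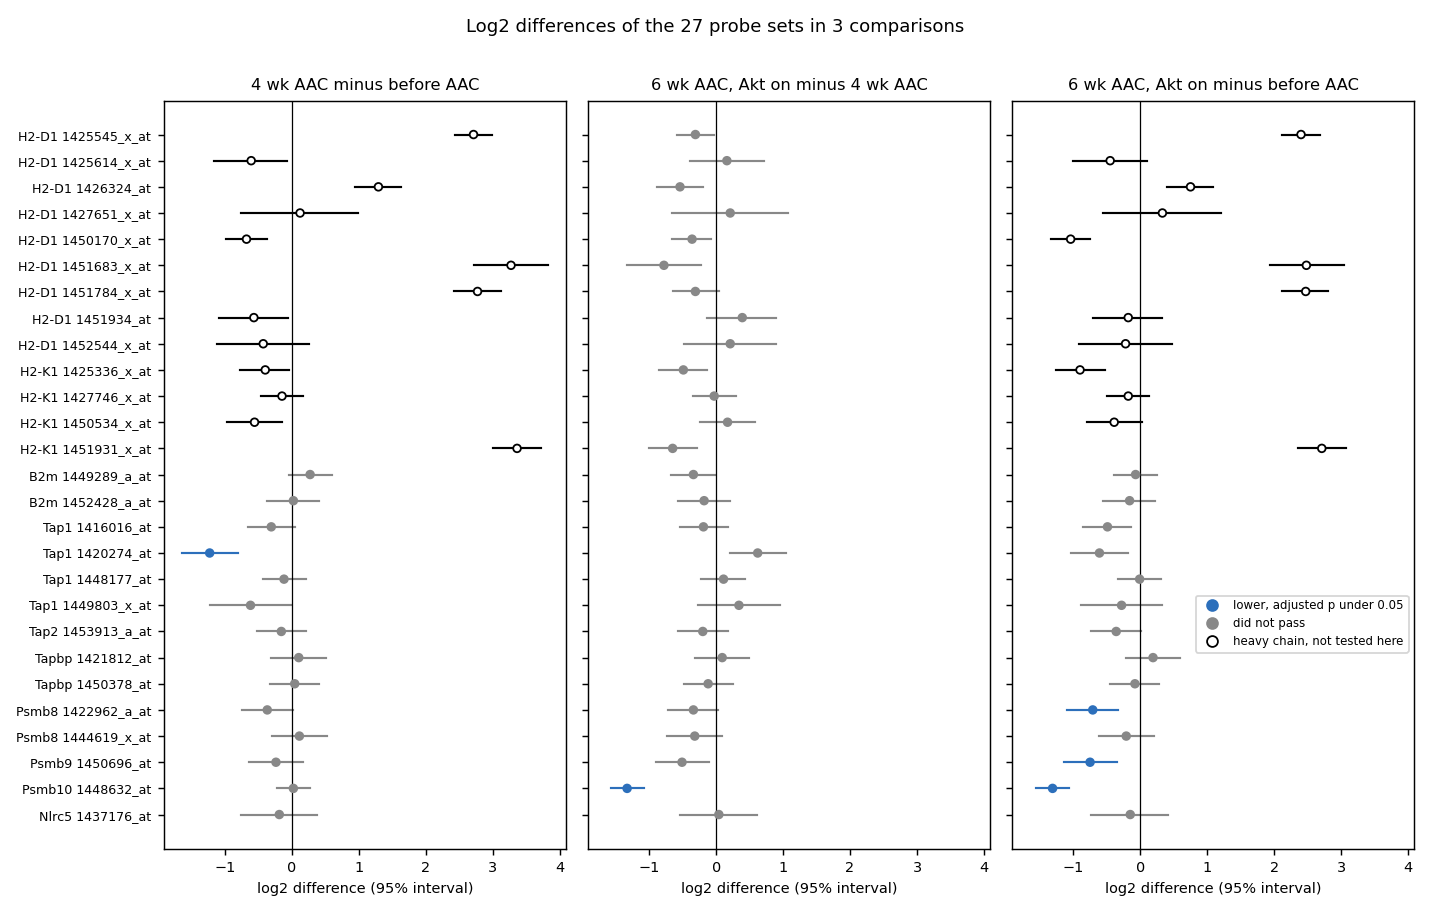
Log2 differences of the 27 probe sets with unadjusted 95% intervals in the 3 comparisons (x axis; blue, adjusted p under 0.05; grey, did not pass; open, heavy chain, not tested). Psmb10 is the only blue point of the middle panel, and the open points split to both sides of 0, from −0.68 to 3.36 at 4 weeks.

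The calls in the gene lists below stand beside the shares of all probe sets that were called. At 4 weeks against before AAC, 0.864% were called higher and 0.492% lower. With Akt on, the shares were 0.43% and 0.556% against 4 weeks and 3.37% and 3.05% against before AAC. Counts of unadjusted p under 0.05, above and below, are given without such a share. Values under 0.05 were common among all probe sets. Tap1 1449803_x_at, under 0.05 at 4 weeks against before AAC, ranked only 7505 of 45137 by limma p. B2m 1449289_a_at ranked 5331 with Akt on against 4 weeks and Tap1 1416016_at 4747 with Akt on against before AAC, both under 0.05. Whether any such count exceeds the share of all probe sets was not tested. Of 30 other class I and class I-like genes, 14 had probe sets of their own, 19 in all. None of these 19 passed in any comparison (limma; 3, 4 and 3 had an unadjusted p under 0.05 at 4 weeks against before AAC, with Akt on against 4 weeks and with Akt on against before AAC), and their log2 differences at 4 weeks against before AAC ran from −0.73 to 0.82 (Mr1, which presents microbial metabolites, 0.82, limma adjusted p = 0.0847). A further probe set, 1449556_at, which carries the symbols H2-T-ps and H2-T23, both on the same list, fell with Akt on against before AAC (log2 −1.14, limma adjusted p = 0.00933). Among 117 probe sets of 68 genes that lie around the class I genes in the H2 region, 1 rose at 4 weeks against before AAC. It belongs to Ehmt2, a histone methyltransferase (log2 1.49, SE 0.24, limma adjusted p = 0.0249). There were 2 that rose and 5 that fell with Akt on against before AAC, where 3.37% of all probe sets rose and 3.05% fell. These counts by themselves are thus no result about the region. The same Ehmt2 probe set, 1426888_at, was the highest (log2 1.89, limma adjusted p = 0.00333), while the other of Ehmt2, 1460692_at, had log2 differences of −0.03 at 4 weeks and −0.21 with Akt on. With Akt on against 4 weeks, 1 rose, of the collagen receptor gene Ddr1 (1437619_x_at, log2 0.86, adjusted p = 0.0485), whose other probe sets ran from −0.42 to 0.80.

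Of 21 probe sets for peptide loading and trimming partners, 1 rose and 2 fell at 4 weeks against before AAC. Tpp2, a peptidase that trims proteasome products, had 480.8, 561.7 and 567.9 in 1 of its 5 probe sets, 1438264_a_at, with Akt on and 363.0, 508.0 and 485.5 at 4 weeks, against 172.4, 157.6 and 168.5 before AAC (log2 1.28 at 4 weeks, limma adjusted p = 0.0109). The other Tpp2 probe sets did not pass, among them 1421894_a_at with 1008.4, 875.7 and 959.9 with Akt on and 760.7, 793.5 and 993.9 at 4 weeks, against 809.9, 1059.3 and 856.9 before AAC (log2 −0.09 at 4 weeks and 0.07 with Akt on), so that probe sets of Tpp2 disagreed. Calr, the chaperone calreticulin, fell in 2 of 3 probe sets (log2 −0.84 and −0.58, adjusted p = 0.0249 and 0.0319; the third −0.60, 0.117). The same 3 probe sets passed in the same directions with Akt on against before AAC, with log2 differences of 1.52, −0.54 and −0.48. None of the 21 passed with Akt on against 4 weeks, where 1 had an unadjusted p under 0.05.

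Of 8 probe sets for the proteasome activator and the constitutive catalytic subunits, 1 passed, Psme1 of the interferon-inducible activator, which fell with Akt on against before AAC (log2 −0.59, limma adjusted p = 0.0403). Psmb7, the constitutive counterpart of Psmb10, had a log2 difference of 0.38 with Akt on against 4 weeks (adjusted p = 0.296). Of 31 probe sets for regulators of class I transcription, none passed at 4 weeks against before AAC or with Akt on against 4 weeks (5 and 3 had an unadjusted p under 0.05), and 1, of the CCAAT-binding subunit Nfyc, fell with Akt on against before AAC (log2 −0.55, adjusted p = 0.0491). Ifng had a log2 difference of −0.95 at 4 weeks (adjusted p = 0.124) and its target regulator Irf1 one of −0.69 (adjusted p = 0.139).

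None of 17 probe sets for interferon gamma-induced genes outside the pathway was called higher in any comparison. An unadjusted p under 0.05 was seen in 3 at 4 weeks against before AAC. It was seen in 5 with Akt on against 4 weeks and in 8 with Akt on against before AAC. Of these, only Igtp was higher, with Akt on against before AAC (log2 0.64, limma adjusted p = 0.109) and against 4 weeks (log2 0.50, adjusted p = 0.331). Iigp1, an immunity-related GTPase, fell in 1 of its 2 probe sets, 1419043_a_at, at 4 weeks against before AAC (log2 −0.79, limma adjusted p = 0.0466) and with Akt on against before AAC (log2 −0.80, adjusted p = 0.0188), while 1419042_at did not pass (log2 −0.28 and −0.40). Gbp6, a guanylate-binding protein, had 159.0, 28.6 and 207.2 in 1 of its 2 probe sets, 1447927_at, with Akt on, against 465.1, 460.4 and 767.0 at 4 weeks and 688.2, 541.7 and 710.4 before AAC. It fell with Akt on against 4 weeks (log2 −2.05, SE 0.41, adjusted p = 0.0434) and against before AAC (log2 −2.26, adjusted p = 0.0101). The other Gbp6 probe set, 1438676_at, did not pass in these comparisons (log2 −0.94 and −0.65, adjusted p = 0.232 and 0.292). Of 20 probe sets of the class II pathway, 3 passed, all of H2-Aa, a class II heavy chain made by antigen-presenting cells, which fell with Akt on against before AAC (log2 −1.13, −1.38 and −1.61). All 9 list calls at 4 weeks against before AAC, those of lymphocyte and endothelial markers below included, were lost when at least 2 of the hearts were left out in turn, and Gbp6 and Ddr1 lost theirs with Akt on against 4 weeks in 7 and 9 of the 9 such fits. With Akt on against before AAC, the calls of Tpp2, Ehmt2 and Gbp6 held in all of them. In that comparison Nfyc lost its call in 8 of these 9 fits, Psme1 in 7, Calr in 5 and 7, and Iigp1 in 3. The H2-Aa probe sets lost theirs in 2, 4 and 4.

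Markers of cells that are rich in class I were set beside these results. In bulk hearts fewer cells of a type and less RNA per cell cannot be told apart. Of 19 endothelial probe sets, 10 fell with Akt on against before AAC, 2 fell at 4 weeks against before AAC and none passed with Akt on against 4 weeks, where 11 had an unadjusted p under 0.05. Of all probe sets, 3.05% fell with Akt on against before AAC and 0.492% at 4 weeks against before AAC. Their summed signal on chip 430A was 16765 to 18549 with Akt on, 20184 to 22162 at 4 weeks and 27349 to 29368 before AAC, with no overlap. This ordering is that of Psmb8, Psmb9 and Tap1 1416016_at and the reverse of that of the 5 high heavy chain probe sets relative to before AAC, and its part in them was not tested.

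No macrophage probe set of 17 passed in any comparison (at most 2 had an unadjusted p under 0.05), and the summed signal of that list was 11211 to 15968 with Akt on, 9755 to 13989 at 4 weeks and 13239 to 14358 before AAC. Of 13 T lymphocyte probe sets, 1 passed, Cd2, which fell at 4 weeks against before AAC (log2 −0.86, limma adjusted p = 0.0428), and the summed signal was 642 to 819 with Akt on, 486 to 551 at 4 weeks and 656 to 778 before AAC. Of 7 B lymphocyte probe sets, 1 passed, 1 of 2 of Cd22, which fell at 4 weeks (log2 −1.11, adjusted p = 0.0337; the other 0.02). None of the probe sets for NK cells (7), dendritic cells (7), neutrophils (4) or atrium (9) passed. Several of these lists held signals near the floor of the scale. Their lowest signal in any heart was 0.5 for B lymphocytes, 1.6 for T lymphocytes, 4.2 for atrium and 5.2 for neutrophils. It was 8.9 for macrophages, 9.1 for NK cells and 34.3 for dendritic cells. Fibroblast markers went the other way from Psmb10 with Akt on against 4 weeks. Of 14 probe sets 5 rose, against 0.43% of all probe sets, with a summed signal of 43512 to 69614 with Akt on and 26890 to 43054 at 4 weeks. These 5 calls were lost in between 1 and 8 of the 9 fits that left out a heart. The part of the fibroblast markers in the Psmb10 difference was not tested. Of 18 heart muscle probe sets none passed with Akt on against 4 weeks or at 4 weeks against before AAC, and 1 rose and 3 fell with Akt on against before AAC.

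**Figure D5:**
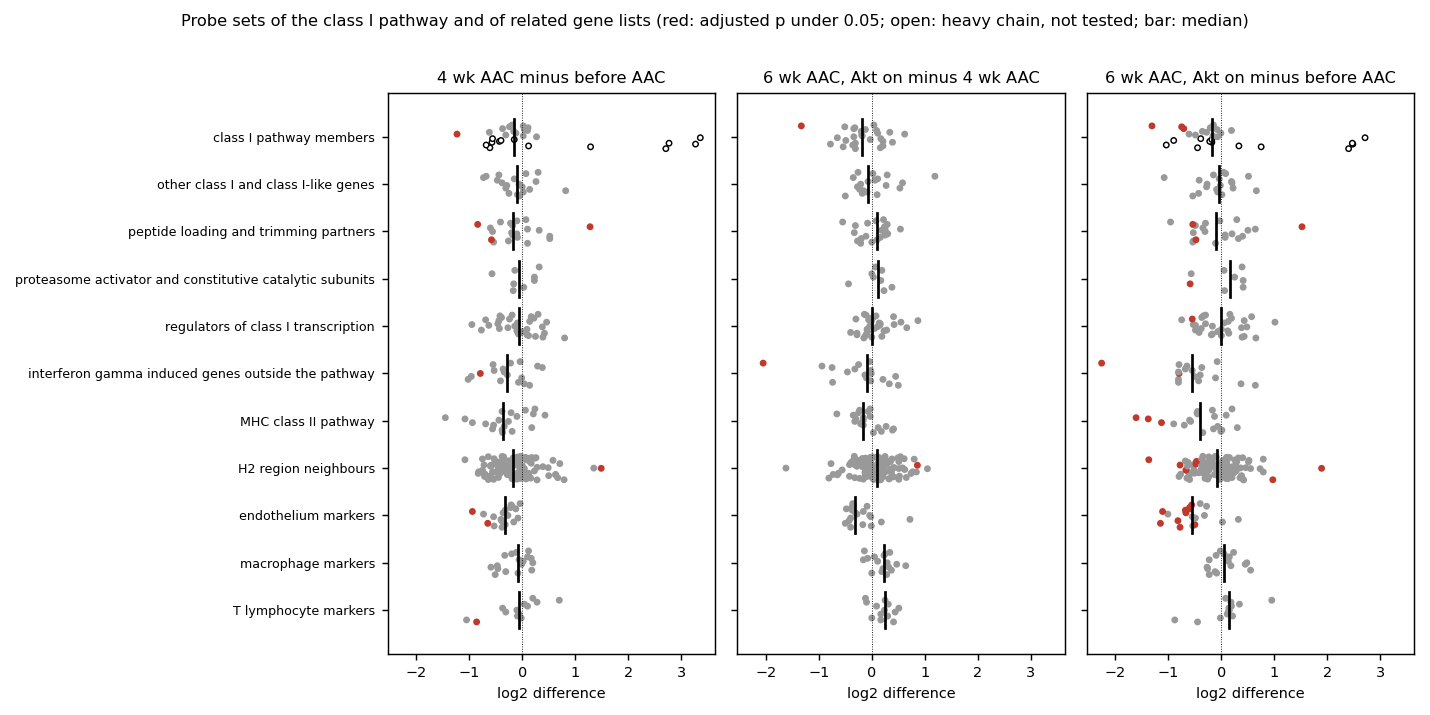
Log2 differences (x axis) of every probe set of the class I members and of 10 gene lists in the 3 comparisons (dots; red, adjusted p under 0.05; open, heavy chain, not tested; bar, median of the list). The members have open points near 3 in both comparisons with the hearts before AAC, and the single-symbol probe sets of other class I genes have no red point.

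The genes whose pattern over the 9 hearts was most like that of H2-D1 1425545_x_at were Smim10l1 (Pearson r = 0.983), Psma7 (0.981), Senp2 (0.979), Cpe (0.975) and Tspan31 (0.972), taken from 21830 probe sets with higher signals. Their own log2 differences at 4 weeks against before AAC were 0.87, 0.59, 0.68, 0.74 and 0.53. Psma7 is a constitutive proteasome subunit and Cpe a carboxypeptidase of secretory granules. The patterns most like Psmb8 1422962_a_at were those of Ndufa2 (r = 0.984), Frmd4b (0.976), Zmym5 (0.968), Rbpms (0.968) and Snord104 (0.966). These correlations rest on 9 hearts in 3 groups, mix differences between and within groups, and describe likeness only.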

How the data were processed

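Heart RNA was isolated with Ultraspec-II and labelled with biotin by standard Affymetrix procedures, per the labels' protocols. The authors deposited MAS5 signals, named in the submitters' processing notes without a version: intensity on a linear scale, with trimmed means of 500.19 to 500.22 on chip 430A and 122.51 on chip 430B, so that the pseudocount weighs more on chip 430B. Of 45137 probe sets other than controls, 35041 had 1 symbol in the platform annotation, 936 several and 9160 none, and all were fitted with no filter on low signals.

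Each array was scaled to its chip's mean trimmed mean (2% off each end), and signals were taken as log2(signal + 32). Linear models with 3 group means were fitted per chip with limma 3.58.1 in R 4.3.3 (lmFit, eBayes with trend, two-sided). Adjusted p-values are Benjamini-Hochberg over both chips, with a threshold of 0.05, and the fit was tested on simulated data. The number of arrays, 3 per group, limits the precision, with SEs of 0.11 to 0.40 for the members. The members and lists were chosen with earlier results of these data known. All members are described, and from each list up to 4 probe sets with the smallest p. The 5 genes most like H2-D1 and Psmb8 came from the brightest 60% of each chip. Promoters came from RefSeq, aligned with Biopython 1.88. Alternatives were quantile scaling, pseudocounts of 8 and 100, chip 430B rescaled to the level of chip 430A, the 60% filter, no variance trend, only the groups compared, adjustment within each chip, the replicate number as a block, 4-week replicates 1 and 3 averaged, and each heart left out.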

Additional observations from a re-analysis of the deposited data

How the results depend on the processing

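For single member probe sets that were tested, 1007 values under the alternatives stayed on their side of the threshold, 23 lost it and none gained it, and no called value changed sign. For the heavy chains against before AAC, which were not tested, 477 values moved by less than the spread between replicates and 11 by more, 9 of them with another pseudocount and 2 of H2-D1 1427651_x_at, which changed sign without before-AAC replicate 2 (log2 -0.41 at 4 weeks and -0.20 with Akt on). Psmb8 and Psmb9 lost their calls against before AAC without any 1 of the hearts before AAC, and in 5 further alternatives each. Of the calls of list genes, 9 of 9, 7 of 7 and 24 of 37 were lost under some alternative at 4 weeks against before AAC, with Akt on against 4 weeks and with Akt on against before AAC. Of the 14 probe sets other than heavy chain, 0 to 1 were called at 4 weeks against before AAC with a heart left out (1 with all hearts), 0 without any 1 of the hearts before AAC or 4-week replicate 1 or 2. The count there was also 0 with 4-week replicates 1 and 3 averaged and with the 60% filter, which leaves out Tap1 1420274_at. With Akt on against before AAC 1 to 3 were called (3 with all hearts), 1 without any 1 of the hearts before AAC, 4-week replicate 2 or Akt replicate 1 or 3, and with Akt on against 4 weeks 1 of the 27 throughout. Fewer hearts leave fewer degrees of freedom. The replicate block gave 0, 1 and 1 calls for 4 weeks against before AAC, Akt on against 4 weeks and Akt on against before AAC, and took the calls of Tap1 1420274_at (adjusted p = 0.0647), Psmb8 (adjusted p = 0.0711) and Psmb9 (adjusted p = 0.0647), the last pair with Akt on against before AAC. Same-numbered hearts did not deviate together (r of -0.14 to 0.08), so the numbers do not pair them. Over all probe sets the calls were 612, 445 and 2899 in these comparisons. They were 73, 191 and 2075 with the block, 1199, 688 and 3623 with the 60% filter, 171, 222 and 1986 without the trend, 873, 79 and 2357 with only the groups compared, 1160, 539 and 3091 adjusted within each chip, and 72, 207 and 3215 with 4-week replicates 1 and 3 averaged. With a heart left out they ran from 25 to 1137, from 119 to 361 and from 976 to 3357. The causes of these shifts were not tested. Quantile scaling moved the median of all probe sets by less than 0.05.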

Other observations

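A further 12 probe sets of class I and class I-like genes carry several symbols and could not be assigned to a gene. None passed the test at 4 weeks against before AAC (log2 differences from -0.45 to 0.34) or with Akt on against 4 weeks (from -0.69 to 0.31), and 1 was lower with Akt on than before AAC (log2 -1.14, limma adjusted p = 0.00933). The 3'/5' signal ratio of Gapdh was also highest in the hearts before AAC, at 0.93, 0.86 and 0.81 with Akt on, 0.83, 0.87 and 0.89 at 4 weeks, and 1.07, 1.19 and 1.32 before AAC.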
